A study of Mus musculus with 464 samples.

Results

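The genes described here make, load and recycle acetylcholine and the catecholamines. They are 8 of the 21973 genes in a table of single-cell expression: Chat, Slc18a3 and Slc5a7 for acetylcholine, and Th, Ddc, Slc18a2, Dbh and Gch1 for dopamine and noradrenaline. The rule names them by symbol and sets no threshold on their values. The cells came from R1, a mouse embryonic stem cell line that was maintained in medium with LIF (1000 U/ml) and 15% Knockout Serum Replacement. Embryoid bodies formed over 48 hours in hanging drops and then received retinoic acid, at a labelled 0.5 mM, for 4 days. All cells share that treatment, and the labels name no separate cultures, so there is 1 group of 1 sample and no test was made.

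A filter on gene number and mitochondrial share removed 6 columns. The columns fall into 2 sets by name, and 55 columns of set 2 were near copies of a set 1 column, taken as repeats of the same cell. With each repeat counted once, the distinct cells were 63 with high neurofilament expression and 340 others. Values are in TPM (the share of a cell's transcripts, corrected for transcript length), sequencing depth is unknown, and a gene is called detected at 1 TPM or more. Intervals on shares are exact Clopper-Pearson 95% intervals that cover counting error only. Where a count of 0 is given with a share allowed, that share is 3 cells of the number of cells. This limit is somewhat below the upper end of the exact interval. Other counts of 0 have the exact interval or no limit beside them, and do not show absence. A 0 here means only that a gene is listed at 0: the housekeeping genes Hprt and Tbp were at 0 in 25 and 39 distinct cells. A distinct cell had a median of 6740 genes above 0.

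Acetylcholine is made by choline acetyltransferase (Chat), packed into synaptic vesicles by the vesicular acetylcholine transporter (Slc18a3) and rebuilt from choline that the high-affinity transporter Slc5a7 brings back into the nerve ending. Spinal and cranial motor neurons are the classic cholinergic cells of the hindbrain and spinal cord. Catecholamines start with tyrosine hydroxylase (Th), the rate-limiting enzyme, which needs the cofactor tetrahydrobiopterin, whose synthesis begins with GTP cyclohydrolase (Gch1). Aromatic L-amino acid decarboxylase (Ddc) then makes dopamine, the vesicular monoamine transporter VMAT2 (Slc18a2) loads it into vesicles, and dopamine beta-hydroxylase (Dbh) turns it into noradrenaline. Ddc and Slc18a2 also serve serotonin neurons, and Ddc is found outside the nervous system as well.

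On assembly GRCm38.p6, which is the mm10 build of the authors' processing, Slc18a3 lies at chr14:32462437-32464850, inside Chat at chr14:32408203-32465909 and on the same strand. Their starts are 1059 bases apart. This is the cholinergic locus that mammals share, and reads from the stretch that both genes cover may not be separable, so the division of signal between Chat and Slc18a3 is uncertain. The other members stand alone: Slc5a7 at chr17:54273590-54299038, Th at chr7:142892779-142899995, Ddc at chr11:11814101-11898144, Slc18a2 at chr19:59260878-59296012, Dbh at chr2:27165507-27183204 and Gch1 at chr14:47153895-47189413. RefSeq promoter windows of the same assembly, each from 250 bases before to 50 bases after the annotated start, matched 8 of 8 members, with 9 windows in all because Ddc has a pair of starts.

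Shown are the windows of the paired starts of the cholinergic locus and of the only members whose window holds the 8-base palindrome TGACGTCA, known as the cAMP response element. Capitals mark TGACGTCA or the E-box CAGCTG, and no marked stretches overlap.
Slc18a3 promoter, chr14:32464801-32465100, minus strand: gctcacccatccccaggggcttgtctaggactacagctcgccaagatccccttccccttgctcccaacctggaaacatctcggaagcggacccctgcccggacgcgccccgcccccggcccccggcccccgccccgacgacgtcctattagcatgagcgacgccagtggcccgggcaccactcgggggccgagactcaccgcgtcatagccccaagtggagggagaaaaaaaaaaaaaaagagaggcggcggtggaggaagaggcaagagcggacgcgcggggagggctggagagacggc
Chat promoter, chr14:32465860-32466159, minus strand: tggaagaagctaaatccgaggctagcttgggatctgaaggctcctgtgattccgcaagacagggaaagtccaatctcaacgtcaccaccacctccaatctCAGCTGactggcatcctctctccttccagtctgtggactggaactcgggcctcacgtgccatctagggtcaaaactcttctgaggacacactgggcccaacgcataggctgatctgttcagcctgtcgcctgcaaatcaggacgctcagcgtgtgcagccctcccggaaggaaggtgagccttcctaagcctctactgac
Th promoter, chr7:142899946-142900245, minus strand: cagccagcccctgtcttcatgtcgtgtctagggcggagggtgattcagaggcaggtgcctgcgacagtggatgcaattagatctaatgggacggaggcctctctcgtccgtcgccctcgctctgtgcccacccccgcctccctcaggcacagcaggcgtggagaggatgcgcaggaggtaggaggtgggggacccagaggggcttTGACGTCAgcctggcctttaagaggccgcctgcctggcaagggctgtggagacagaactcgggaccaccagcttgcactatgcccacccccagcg
Slc18a2 promoter, chr19:59260628-59260927, plus strand: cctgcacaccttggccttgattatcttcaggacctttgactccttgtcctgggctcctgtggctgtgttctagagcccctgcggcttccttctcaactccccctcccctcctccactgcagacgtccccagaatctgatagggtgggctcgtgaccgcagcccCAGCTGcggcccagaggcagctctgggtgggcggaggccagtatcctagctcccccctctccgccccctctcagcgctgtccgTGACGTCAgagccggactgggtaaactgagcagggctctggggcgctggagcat
TGACGTCA begins 45 bases upstream of the Th start and 4 bases upstream of the Slc18a2 start, and 1.79% of all 32851 RefSeq windows of this length hold it. CAGCTG begins 150 bases upstream in Chat and 87 bases upstream in Slc18a2, and 16.3% of windows hold it. The homeodomain core TAATTA, which 5.29% of windows hold, was in none of the members' windows. All 3 motifs read the same on both strands. These matches describe letters in a window and were not tied to any measurement.

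Cells were set apart by neuron genes that are not members. Neurofilament-high cells had Nefl and Nefm (neurofilament subunits), Mapt (tau) and Stmn2 (a neuronal tubulin regulator) each at 10 TPM or more, which held in 63 cells, or 15.6% of distinct cells. Each cell was put in 1 class only, in the order neurofilament-high, endoderm-marker, progenitor-marker. Progenitor-marker cells, 53.6% of distinct cells, were in neither earlier class and had at least 3 of the progenitor genes Pax6, Nes, Cdh2, Fabp7 and Sox2 at 10 TPM or more. Endoderm-marker cells, 82 in number, had at least 3 of the endoderm genes Sox17, Gata4, Gata6 and Foxa2 at that level, and 42 remaining cells had neither set. Median gene numbers were 7179 in neurofilament-high cells and 6658.5 in all other cells. The cut is not a gap: the lowest of the 4 genes was between 5 and 10 TPM in 5 cells and between 10 and 20 TPM in 16. The neuron label was checked on 6 neuron markers that did not define the class (Tubb3, Elavl3, Elavl4, Dcx, Map2 and Syt4), of which 5 were detected in at least 50% of neurofilament-high cells. Their summed level was 1108.9 TPM in the median neurofilament-high cell, with a range of 72.2 to 2581.6, against 67.9 TPM in the median other cell, where it reached 3229.1. Among the other cells, the 42 remaining cells had a median sum of 699.9 TPM, with 5 of the 6 markers detected in at least 50% of them. The other cells thus include cells with high neuron markers. Progenitor markers were not lost from neurofilament-high cells: 6 of 9 were detected in at least 50% of them, with a median sum of 358.6 TPM against 775.3 TPM in all other cells. Primitive endoderm markers summed to a median of 2.34 TPM in neurofilament-high cells, where the highest cell had 1211.8, against 7.17 TPM in all other cells. At least 1 of the 8 members was detected in 50 neurofilament-high cells (79.4%, interval 67.3% to 88.5%) and in 51.8% of all other cells (interval 46.3% to 57.2%).

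**Figure D1:**
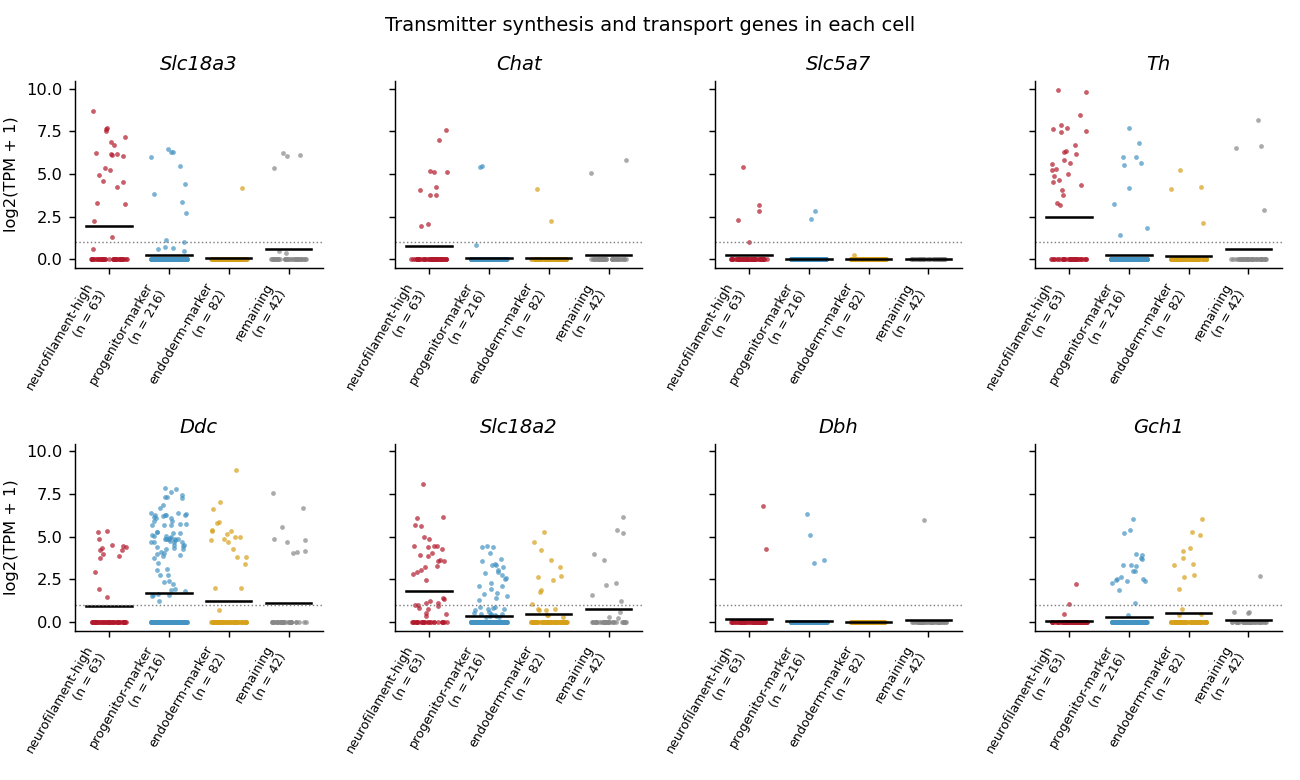
Level of each member in each distinct cell, as log2(TPM + 1), in 63 neurofilament-high, 82 endoderm-marker and 42 remaining cells and in the progenitor-marker cells, 53.6% of all. Each point is 1 cell, the black bar is the mean of log2(TPM + 1) and the dotted line is 1 TPM. High Slc18a3 and Th values gather in the neurofilament-high cells, whereas Ddc has points across all 4 classes.

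By mean level over all distinct cells, the order was Ddc at 13.7 TPM, Th at 12.5, Slc18a3 at 6.36, Slc18a2 at 3.26, Chat at 1.67, Gch1 at 1.25, Dbh at 0.811 and Slc5a7 at 0.176 TPM. With 1 sample there is no spread over samples against which neighbours in that order could be told apart. The order by share of cells was different. Ddc was detected in 30.02% of distinct cells, Slc18a2 in 18.4%, Th in 10.9%, Slc18a3 in 9.43%, Gch1 in 8.69%, Chat in 4.22%, Dbh in 1.74% and Slc5a7 in 1.49%. Over all kept columns, with repeats counted as cells, the shares ran from 1.31% for Slc5a7 to 29.04% for Ddc. Th therefore reached nearly the mean of Ddc from far fewer cells, and 12 cells of each had 100 TPM or more. The highest cell alone held 19.5% of all Th signal and 8.56% of all Ddc signal.

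Slc18a3, the vesicular acetylcholine transporter, was the most widely detected of the cholinergic genes. It was found in 22 of 63 neurofilament-high cells (34.9%, interval 23.3% to 48.0%) and in 16 of 340 other cells (4.71%, interval 2.71% to 7.53%). Among the neurofilament-high cells that detected it, the lowest value was 1.44, the median 67 and the highest 415.1 TPM, whereas among the other detecting cells the lowest was 1.06, the median 41.01 and the highest 85.4 TPM. The ranges of detected values overlap. Mean levels were 30.2 TPM in neurofilament-high cells and 1.95 TPM in all other cells, a 15.4-fold difference, and neurofilament-high cells held 74.2% of the summed signal. Of the other cells with Slc18a3, 11 were progenitor-marker cells, 1 was an endoderm-marker cell and 4 were remaining cells.

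Chat, the synthesis enzyme, was found in 11 neurofilament-high cells (17.5%, interval 9.05% to 29.1%) and in 6 other cells (1.76%, interval 0.650% to 3.80%). In the 11 neurofilament-high cells its lowest value was 2.91 TPM, its median 17.7 TPM and its highest 7.56 on the log2(TPM + 1) scale, next to a second highest of 124.6 TPM. In the 6 others it ran from 3.78 to 55.8 TPM with a median of 36.5. Detection differed in frequency, then, while the values of detecting cells overlapped widely. The means were 7.60 TPM in neurofilament-high cells and 0.570 TPM in all other cells, a 13.1-fold difference. A single cell held 27.9% of all Chat signal, and without the highest cell the log2 fold was 3.02 in place of 3.71.

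Slc5a7, which returns choline to the nerve ending, was rare. Its 4 neurofilament-high cells had 41.5, 8.23, 6.02 and 3.95 TPM, and the 2 other cells, both progenitor-marker cells with 3 of the 4 neuron genes, had 6.15 and 4.08 TPM. No endoderm-marker cell (of 82) and no remaining cell (of 42) detected it, which allows shares of up to 3.66% and 7.14%. With 6 cells in all, no fold is given.

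Th, which makes L-DOPA from tyrosine, was the catecholamine gene with the largest mean in neurofilament-high cells. It was detected in 26 of them (41.3%, interval 29.01% to 54.4%) and in 18 other cells (5.29%, interval 3.17% to 8.24%). Detected values in neurofilament-high cells ran from 7.92 to 984.6 TPM with a median of 52.2, and in the other cells from 1.67 to 280.6 TPM with a median of 40.3. Even so, 37 of the 63 neurofilament-high cells were below 1 TPM. The means were 62.5 TPM in neurofilament-high cells and 3.26 TPM in all other cells, a 19.1-fold difference, with 78.03% of all signal in the neurofilament-high cells. Against cells with 0 to 2 of the 4 neuron genes the log2 fold was 6.06 in place of 4.26, since 11 of the 18 other cells with Th had 3 of the 4.

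Ddc, which makes dopamine from L-DOPA and serotonin from its precursor, had the opposite distribution. It was detected in 15 neurofilament-high cells (23.8%, interval 13.98% to 36.2%) and in 31.2% of all other cells (interval 26.3% to 36.4%), and these intervals overlap. Its values were 1.71 to 39.9 TPM with a median of 17.9 in the neurofilament-high cells, and 1.34 to 472.8 TPM with a median of 28.6 in the others. The highest levels all lay outside the neurofilament-high cells. Mean Ddc was 4.37 TPM in neurofilament-high cells and 15.4 TPM in all other cells, a log2 fold of -1.82, and neurofilament-high cells held 4.99% of the signal. Progenitor-marker cells detected Ddc in 77 cells (35.6%), endoderm-marker cells in 20 of 82 (24.4%) and remaining cells in 9 of 42 (21.4%). The cell with the highest Ddc, 472.8 TPM, was an endoderm-marker cell.

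Slc18a2, the vesicle loader for all monoamines, was detected in 29 of 63 neurofilament-high cells (46.03%, interval 33.4% to 59.1%) against 45 of 340 other cells (13.2%, interval 9.82% to 17.3%). It was mostly low: detected values ran from 1.17 to 275.1 TPM with a median of 13.7 in neurofilament-high cells and from 1.07 to 69.1 TPM with a median of 6.38 in all other cells. Its share therefore depends on the threshold, and at 10 TPM or more it was 28.6% of neurofilament-high cells and 4.41% of all other cells, while Th at that threshold was in 38.1% of neurofilament-high cells. The means were 12.7 TPM in neurofilament-high cells and 1.499 TPM in all other cells, an 8.45-fold difference. A single cell held 20.96% of all signal, and the log2 fold was 2.50 without it in place of 3.08.

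Dbh, the step to noradrenaline, was detected in 7 cells, 2 of them neurofilament-high, with 111.3 and 18.2 TPM. The 5 other cells had 80.1, 62.2, 33.7, 11.4 and 9.94 TPM, and 4 of these were progenitor-marker cells. None of the 5 had more than 1 of the 4 neuron genes. The direction of its difference in means turned without the single highest cell, so no fold is read from it.

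Gch1, the entry enzyme of cofactor synthesis, was rare in neurofilament-high cells. It was detected in 2 of them (3.17%, interval 0.387% to 11%), at 3.66 and 1.06 TPM, and in 33 other cells (9.71%, interval 6.78% to 13.4%), at 1.14 to 65.7 TPM with a median of 8.96. The 2 intervals overlap. Mean Gch1 was 0.0813 TPM in neurofilament-high cells and 1.46 TPM in all other cells, a log2 fold of -4.01 that rests on those 2 low values. With 1 TPM added in place of 0.01 it was -1.19. Of the 33 other cells, 21 were progenitor-marker cells, 11 were endoderm-marker cells and 1 was a remaining cell.

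Among the 8 members, 6 were detected in at least 10 distinct cells, the minimum for calling a 2-fold difference of means. Chat met that minimum with 11 of its 17 cells in the neurofilament-high class. By this rule of size, which is not a test, Slc18a3, Chat, Th and Slc18a2 were higher in neurofilament-high cells and Ddc and Gch1 were lower. As differences of mean log2(TPM + 1), Slc18a3 (1.71), Th (2.24) and Slc18a2 (1.398) stayed past 2-fold, whereas Chat (0.70), Ddc (-0.57) and Gch1 (-0.29) did not. Of the 13582 genes that met the minimum, 12.9% were at least 2-fold higher and 17% at least 2-fold lower, with a median log2 fold of -0.05, so a 2-fold difference in itself is common between these cells.

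**Figure D2:**
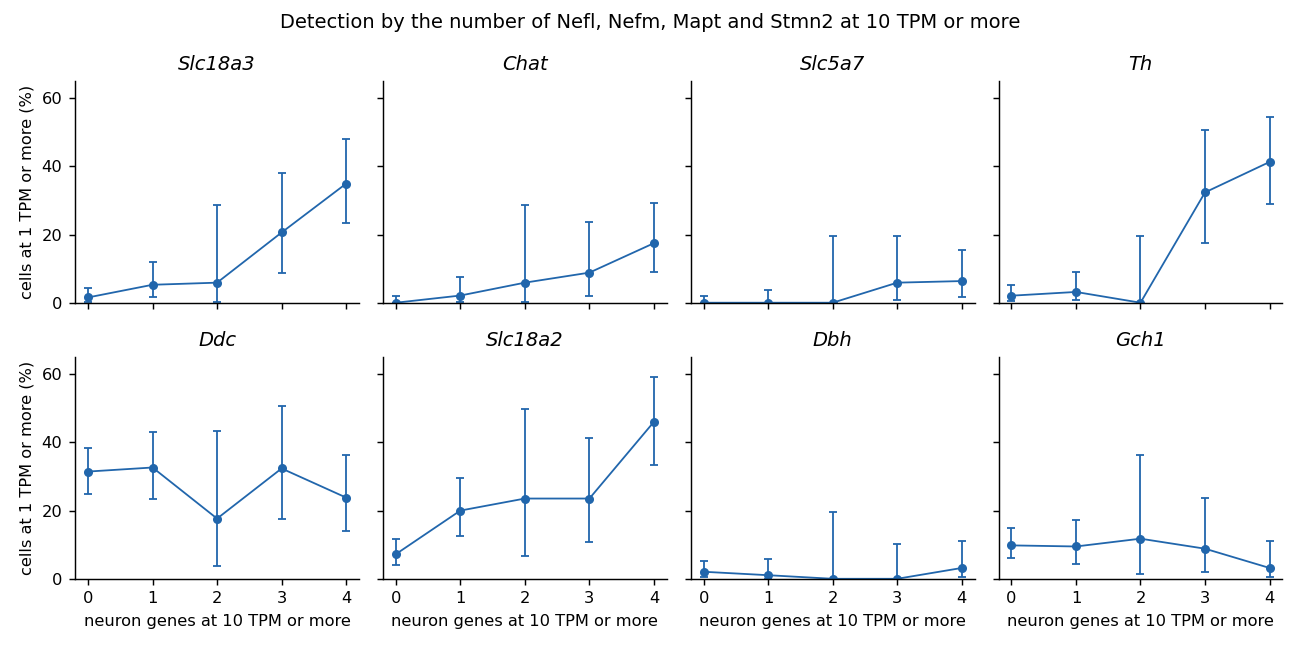
Share of distinct cells at 1 TPM or more of each member, by how many of Nefl, Nefm, Mapt and Stmn2 a cell had at 10 TPM or more (0 to 4). Points are shares and bars are exact 95% intervals. Th is at 3.16% or less up to 2 neuron genes and at 32.4% and 41.3% with 3 and 4, whereas the Ddc intervals overlap at every number.

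Detection was also followed by how many of the 4 neuron genes a cell had. Th was found in 2.06%, 3.16%, 0%, 32.4% and 41.3% of cells with 0, 1, 2, 3 and 4 neuron genes, or 4, 3, 0, 11 and 26 cells, so that the step lay between 2 and 3 genes, where 17 cells make the lower point imprecise. Slc18a3 was found in 3, 5, 1, 7 and 22 of the same cells, and Chat in 0, 2, 1, 3 and 11. Slc5a7 appeared in 2 cells with 3 neuron genes and 4 cells with 4, and in no cell with fewer. Slc18a2 began earlier, in 14 cells with no neuron gene (7.22%) and 19 of 95 with 1 (20%), before reaching 29 of 63. Ddc was found in 31.4%, 32.6%, 17.6%, 32.4% and 23.8% of cells along that series, and Gch1 in 9.79%, 9.47%, 11.8%, 8.82% and 3.17%.

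Chat and Slc18a3, the enzyme and the transporter of the shared locus, were found together in 15 cells. That is 88.2% of the 17 Chat cells (interval 63.6% to 98.5%) and 39.5% of the 38 Slc18a3 cells (interval 24.04% to 56.6%). In neurofilament-high cells, 11 of 11 Chat cells had Slc18a3, and 11 of 22 Slc18a3 cells had Chat. Detection thus nested, with Chat in a subset of the Slc18a3 cells apart from 2 Chat cells. These were a remaining cell with 31.8 TPM of Chat and an endoderm-marker cell with 3.78 TPM. Reads from the stretch that both genes cover may not be separable. Mean Chat over distinct cells was also lower, at 1.67 TPM against 6.36 TPM for Slc18a3. The part of shared reads and of level in this overlap was not tested. The Chat value of the endoderm-marker cell was not repeated in the second column of the same cell. By column set, Slc18a3 accompanied Chat in 4 of 6 Chat cells of set 1 and in 11 of 11 of set 2. All 3 cholinergic genes were found together in 3 cells, all neurofilament-high and all in set 2.

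**Figure D3:**
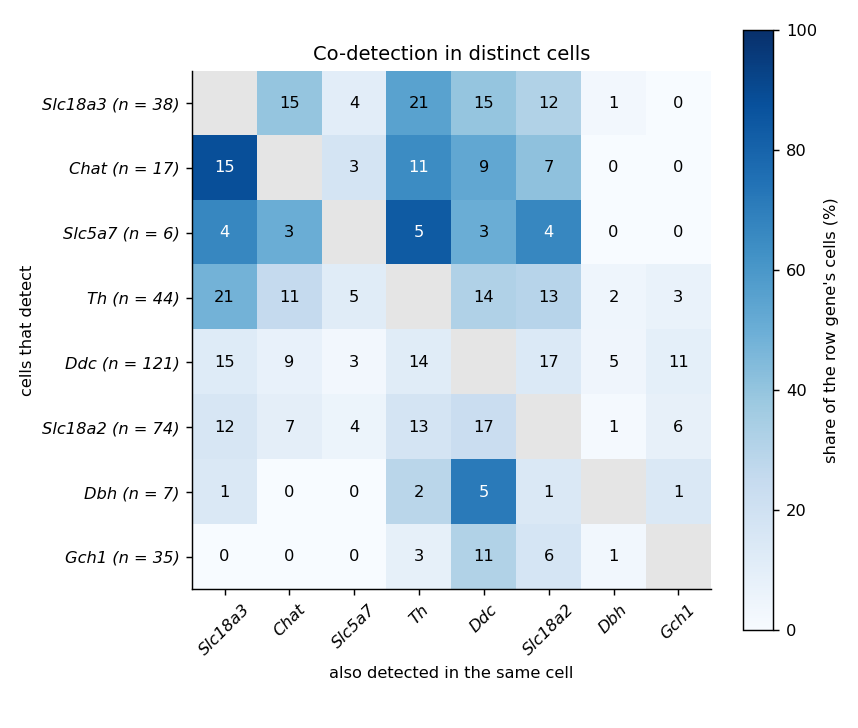
Number of distinct cells with both genes at 1 TPM or more, coloured by the share of the row gene's cells, for each pair of members. Chat cells have Slc18a3 in 15 of 17, Slc18a3 cells have Th in 21 of 38, and no cell pairs Gch1 with a cholinergic gene.

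Th was found in many of the same cells as the cholinergic genes. Th and Slc18a3 were both detected in 21 cells, which is 47.7% of the 44 Th cells and 55.3% of the 38 Slc18a3 cells. Within the neurofilament-high cells, Th was detected in 15 of 22 cells with Slc18a3 (68.2%, interval 45.1% to 86.1%) and in 11 of 41 without it (26.8%, interval 14.2% to 42.9%). For Chat, Th was detected in 8 of 11 neurofilament-high cells with it (interval 39.03% to 93.98%) and in 18 of 52 without (interval 21.97% to 49.09%). These intervals overlap, and all 11 Chat cells had Slc18a3, so this split is not separate from that of Slc18a3. At least 1 cholinergic gene stood beside Th in 23 of the 44 Th cells, 15 of them neurofilament-high, and 21 Th cells had none, 11 of them neurofilament-high. Doublets could not be called from TPM, and without the 5% of cells with the most genes, 2 or more members of each system were found in 8.62% of neurofilament-high cells, against 9.52% with them. The part of doublets in co-detection was not tested.

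The enzymes that act in sequence on catecholamines were seldom found in sequence in a cell. Of the 44 Th cells, 14 had Ddc (31.8%, interval 18.6% to 47.6%), and Ddc was found in 29.8% of cells without Th (interval 25.1% to 34.8%). In neurofilament-high cells, Ddc was found in 7 of 26 cells with Th and in 8 of 37 without it, and 19 cells had Th and no Ddc. Th, Ddc and Slc18a2 were found together in 5 cells, 4 of them neurofilament-high. Th, Ddc and Dbh were found together in 2 cells, neither of them neurofilament-high. No cell had Th, Ddc, Slc18a2 and Dbh together, which allows a share of up to 0.744% of distinct cells. Of the 7 Dbh cells, 5 had Ddc and 2 had Th. Gch1 was found in 3 of 44 Th cells (6.82%, interval 1.43% to 18.7%) and in 32 cells without Th (8.91%, interval 6.18% to 12.4%), and these intervals overlap. Gch1 was in none of the 17 Chat, 38 Slc18a3 and 6 Slc5a7 cells, with exact intervals reaching 19.5%, 9.25% and 45.9%. In cells without each of these genes Gch1 was in 9.07%, 9.59% and 8.82%, and the intervals overlap for each.

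Counted by system, 2 or more of the 3 cholinergic genes were found in 11 neurofilament-high cells (17.5%, interval 9.05% to 29.1%) and in 5 other cells (1.47%, interval 0.479% to 3.40%). For 2 or more of Th, Ddc, Slc18a2 and Dbh, the counts were 19 neurofilament-high cells (30.2%, interval 19.2% to 43.02%) and 17 other cells (5%, interval 2.94% to 7.89%). Both conditions were met by 6 neurofilament-high cells and 2 other cells. The 11 neurofilament-high cells with 2 or more cholinergic genes all had Chat and Slc18a3, whose reads may not be separable. Cells that detected a member had more genes: medians were 7438 with Th and 6656 without, 7263.5 with Slc18a3 and 6660 without, 7292 with Slc18a2 and 6624 without, and 7343 with Ddc and 6547.5 without. Ddc was detected in 39.1% of cells at or above the median gene number and in 20.9% of cells below it. The part of gene number in the shares and overlaps was not tested.

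**Figure D4:**
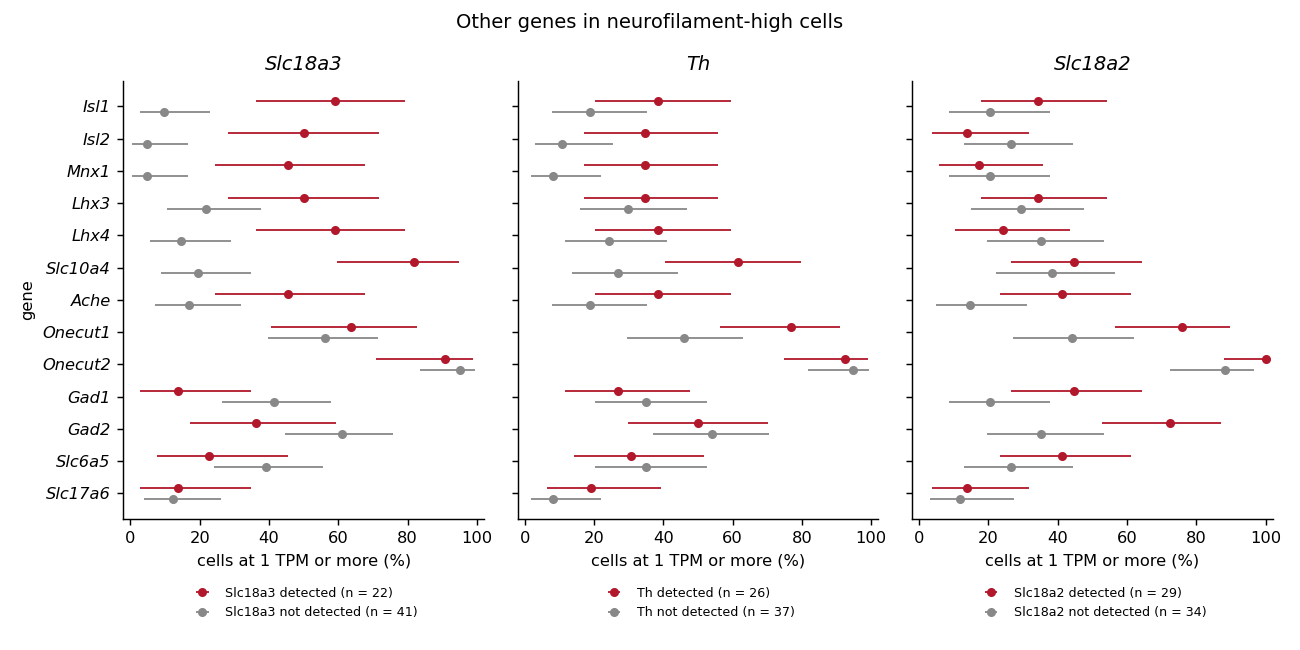
Share of neurofilament-high cells at 1 TPM or more of 13 other genes, in cells that detect Slc18a3, Th or Slc18a2 (red) and in those that do not (grey), with exact 95% intervals. The intervals of Isl1, Isl2, Mnx1, Lhx4 and Slc10a4 stand apart between cells with and without Slc18a3, and those of Gad2 between cells with and without Slc18a2, at 72.4% and 35.3%, overlap slightly. Slc10a4 was picked by its correlation with Slc18a3 over cells that include these, so its gap is not separate support.

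The neurofilament-high cells with Slc18a3 more often had the LIM and Mnx factors of motor neurons. Isl1, a LIM homeodomain factor needed for motor neurons, was detected in 13 of 22 cells with Slc18a3 and in 4 of 41 without. Its relative Isl2 was in 11 and 2 of these cells, and Mnx1 (Hb9), a motor neuron homeodomain factor, in 10 and 2. Lhx4 was found in 13 of 22 and 6 of 41, and Lhx3, which V2 interneurons also use, in 11 of 22 and 9 of 41, where the intervals of 28.2% to 71.8% and 10.6% to 37.6% overlap. At least 2 of these 5 factors were found in 16 of 22 cells with Slc18a3 (72.7%, interval 49.8% to 89.3%) and in 5 of 41 without (12.2%, interval 4.08% to 26.2%). The 5 are part of the 14 listed motor neuron factors and were picked after their values were seen. Their joint count therefore restates the single genes and is no separate support. Other factors of the motor neuron list did not follow Slc18a3 beyond their intervals: Nkx6-1 was in 14 of 22 and 15 of 41, Onecut1 in 14 and 23, Onecut2 in 20 and 39, Nkx6-2 in 8 and 10, Ebf2 in 6 and 18, and Olig2 in 0 and 1. Ebf2 was in 0 of 11 neurofilament-high cells with Chat (interval 0% to 28.5%) and in 24 of 52 without (interval 32.2% to 60.5%). Median gene numbers of the cells with and without Slc18a3 were close, at 7228 and 7179. Tbx20, which marks branchial and visceral motor neurons of the hindbrain, was detected in none of the 63 cells, and Phox2a was in 3 of 22 and 4 of 41.

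Inhibitory transmitter genes were detected in smaller shares of the cells with Slc18a3. Gad1, a GABA synthesis enzyme, was detected in 3 of 22 neurofilament-high cells with Slc18a3 and in 17 of 41 without, and Gad2 in 8 and 25 of these cells. The glycine transporter gene Slc6a5 was detected in 5 and 16. The intervals overlap for each of these 3 genes.

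For the catecholamine genes, the intervals of the same factor count overlap, although Isl1 alone stood apart for Ddc, in 9 of 15 cells with it (60%, interval 32.3% to 83.7%) and 8 of 48 without (16.7%, interval 7.48% to 30.2%). That gap was seen only in set 2, with Isl1 in 8 of 10 cells with Ddc and 3 of 25 without. In set 1 Isl1 was in 1 of 5 cells with Ddc and 5 of 23 without. At least 2 of the 5 motor factors were found in 13 of 26 neurofilament-high cells with Th (50%, interval 29.9% to 70.1%) and in 8 of 37 without (21.6%, interval 9.83% to 38.2%). For Ddc the counts were 8 of 15 and 13 of 48, and for Slc18a2 10 of 29 and 11 of 34. Gad2 was found in 21 of 29 cells with Slc18a2 (72.4%, interval 52.8% to 87.3%) and in 12 of 34 without (35.3%, interval 19.7% to 53.5%), and Gad1 in 13 and 7 of these cells. Gene number moved with these members, with medians of 7662.5 with Th and 6958 without, 8122 with Ddc and 6818.5 without, and 7489 with Slc18a2 and 6967.5 without. Its part in these counts was not tested.

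Across all distinct cells, the genes most like each member were ranked by Spearman correlation of TPM over 12390 genes. These correlations are descriptions over cells of 1 culture condition whose many shared 0s and gene numbers enter them. Slc18a3 was most like Slc10a4, a transporter of cholinergic and monoaminergic vesicles (rho 0.61, 0.54 in set 1 and 0.67 in set 2), followed by Isl1 (0.54), Mnx1 (0.52), Lhx4 (0.51) and Rasgef1c (0.47). Within neurofilament-high cells, Slc10a4 was detected in 18 of 22 cells with Slc18a3 and in 8 of 41 without. Those cells also entered the ranking that picked Slc10a4, so this split is not separate support for the likeness. Th was most like Crtac1 (0.49), Ecel1 (0.47), Slc10a4 (0.46), Slc18a3 (0.46) and Hsd11b2 (0.44), so that no other catecholamine gene was among its 5. Crtac1 had a rho of 0.24 with Th within the 63 neurofilament-high cells, and Ecel1, an endopeptidase-like protein of neurons, had 0.59. Slc18a2 was most like Chgb and Resp18, both of secretory granules, and Ebf1, Gng3 and Prnp, at 0.36 each. Ddc had only Fgfbp3 (0.33) and Sfrp2 (0.32) at 0.3 or more, and Gch1 had none. Chat, Slc5a7 and Dbh were in fewer than 20 cells and were not ranked.

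Other genes of the same pathways were counted by the same 2-fold rule, against which 12.9% of all genes were higher and 17% lower. Of 13 further acetylcholine handling genes, 11 met the minimum, 4 were higher in neurofilament-high cells and 1 was lower, with a median log2 fold of 0.16. Prima1, which anchors acetylcholinesterase in neuronal membranes, had 23.4 TPM in neurofilament-high cells and 0.284 TPM in all other cells, and Ache, acetylcholinesterase itself, had 7.83 and 0.740 TPM. Ache was detected in 10 of 22 neurofilament-high cells with Slc18a3 and in 7 of 41 without, with overlapping intervals. Ache, with 17 neurofilament-high and 6 other cells, and Pcyt1b, with 9 and 8, met the minimum only with neurofilament-high cells counted. The other 2 higher genes were Slc44a2 and Pcyt1b, and Pemt was lower, while the choline kinases Chka and Chkb passed the minimum without a 2-fold difference. Of 10 acetylcholine receptor genes, 6 met the minimum and 4 were higher: Chrnb2, Chrna5, Chrna4 and Chrna3, all nicotinic subunits, with log2 folds of 2.79, 2.56, 1.502 and 1.20. The 4 muscarinic genes listed were each detected in 4 cells or fewer.

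Further genes of the cofactor pathway were mostly within 2-fold. All 9 tetrahydrobiopterin genes met the minimum, none was higher and 3 were lower, with a median log2 fold of -0.52. Among them were Gchfr, the feedback regulator of GTP cyclohydrolase, with 3.85 TPM in neurofilament-high cells and 16.3 TPM in all other cells, and Spr (sepiapterin reductase) with 6.40 and 14.2 TPM. Of 11 genes of catecholamine transport and breakdown, 7 met the minimum and only Cyb561, a granule membrane cytochrome that supplies electrons to dopamine beta-hydroxylase, was higher, with 11.3 TPM against 2.34 TPM, a count of 1 of 7 that is near the share over all genes. The noradrenaline transporter Slc6a2 was in 1 neurofilament-high cell and 15 other cells, the dopamine transporter Slc6a3 in 0 and 1, and Pnmt, which makes adrenaline, in no distinct cell, which allows a share of up to 0.744%.

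Factors of catecholamine neurons were sparse. Of 10 noradrenergic factors, 7 met the minimum and Gata3, Tlx3 and Gata2 were higher in neurofilament-high cells. Gata3, with 10 neurofilament-high and 8 other cells, met the minimum only with the neurofilament-high cells counted. Phox2a was in 7 neurofilament-high cells and 2 other cells, 5 of the 7 with Th, and Hand2 was in 0 neurofilament-high cells. Of 9 midbrain dopaminergic factors, 6 met the minimum, En1 and En2 were higher and Foxa1 was lower. En2, with 3 neurofilament-high and 9 other cells, met the minimum only with the neurofilament-high cells counted. Its means were low, at 0.26 TPM in neurofilament-high cells and 0.11 TPM in all other cells. Over all genes, 12.9% were higher and 17% lower. Pitx3 was in no neurofilament-high cell, Lmx1a in 1 and Nr4a2 in 9, against 1, 1 and 34 of all other cells. Of 14 motor neuron factors, 11 met the minimum, 8 were higher and Olig2, a factor of motor neuron progenitors, was lower, with a median log2 fold of 2.12. For the vesicle release machinery, 10 of 11 genes that met the minimum were higher, led by Snap25 with 116.9 TPM in neurofilament-high cells and 6.29 TPM in all other cells.

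The 55 repeat pairs showed how far a member's value carries over between columns of the same cell. Over 440 pairs of values for the 8 members, both columns detected the gene in 31, only 1 column did in 7, and neither did in the rest. Ddc was found in both columns of 10 pairs and in only 1 column of 4, Slc18a2 in 11 and 1, Th in 2 and 1, Gch1 in 6 and 0, Slc18a3 and Dbh each in 1 and 0, and Chat in 0 and 1. The 7 values without a match were all between 1.83 and 3.78 TPM. A set 1 column could enter more than 1 pair. The Ddc values 2.94 and 0 TPM occur in more than 1 pair and may count the same set 1 column again. Where both columns detected a gene, the median absolute log2 difference was 0.42 and the largest was 1.54. Only 2 neurofilament-high cells have a repeat, and no pair fell on different sides of the neuron threshold, so that the repeats measure the members mainly in other cells.

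**Figure D5:**
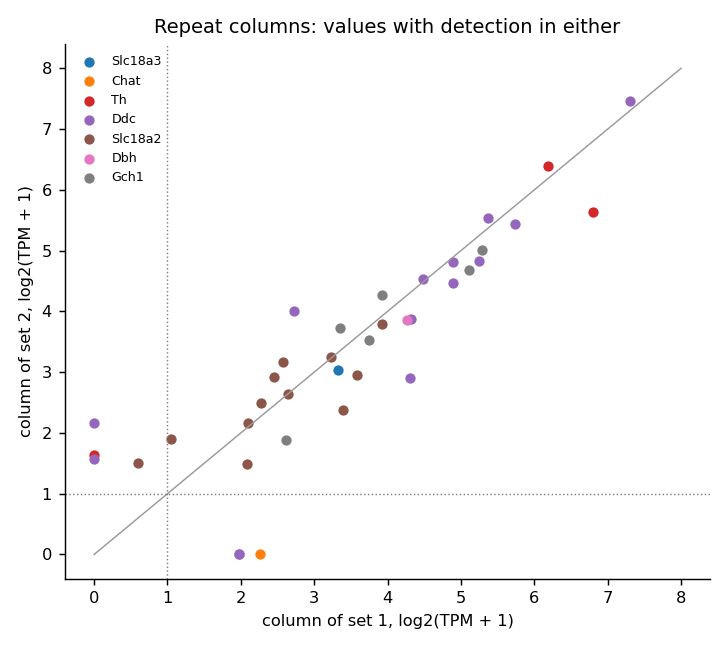
Values of the members in the set 1 and set 2 columns of repeat pairs, as log2(TPM + 1), for pairs in which at least 1 column detects the gene. The grey line marks equal values and the dotted lines mark 1 TPM. Most points lie near the line, some detected pairs lie off it (Th at 110.1 and 48.5 TPM, Ddc at 18.8 and 6.47 TPM), and low values can be missing from 1 column.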

How the data were processed

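The study measured RNA in single cells captured on a Fluidigm C1 instrument with SMART-Seq V4 cDNA and Nextera XT libraries, which carry no molecular identifiers. The submitters' processing notes name STAR, RSEM and the build mm10, without versions. Any gene filter and the annotation, not given in the sources used here, can shape the values. The authors deposited TPM values made from reads aligned and quantified with those tools, in 1 table that names no unit. The unit was inferred, since RSEM gives TPM and no column sums above the TPM total. TPM keeps no depth, so cells could not be thinned and doublets were not called. Columns were not tied to single sample labels, which all share 1 group.

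A column was kept at 2000 or more genes above 0 and 20% or less mitochondrial signal, which removed 6. Pairs of columns from the 2 sets correlating at 0.93 or more were taken as 1 cell, and the set 2 column was left out. No reason for the repeats is stated in the sources used here. Folds compare mean TPM with 0.01 TPM added, for genes detected in at least 10 cells, and are called past 2-fold. With 1 sample there are no p-values. All 8 members are named. From the 17 other lists (146 genes), up to 4 genes a list past 2-fold were to be named; genes below the minimum or without a 2-fold difference, and the genes plotted beside members, were added after their values were seen. Likeness names the 5 genes with the highest rho, if 0.3 or more. The members and lists were chosen with earlier results of these data known. Recovery of known folds was checked on real values shuffled over cells, only for genes detected in more columns than any member. It was not checked for genes as sparse as the members. Scripts ran in Python 3.11.15 with numpy 2.4.6 and scipy 1.17.1. Some listed genes are not reported here.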

Additional observations from a re-analysis of the deposited data

How the results depend on the processing

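No paired analysis was possible because all cells form 1 group of 1 sample with no replicate numbers, and for the same reason no replicate could be left out. The alternatives changed the detection threshold, neuron threshold, added TPM, minimum number of cells, cell filter, gene number, column set and treatment of repeats. Leaving out a member's highest cell, and comparing with cells that had 0 to 2 neuron genes, were added after seeing the data. Of the recomputed log2 folds of members, 8 came below the 2-fold threshold (3 of Dbh, 2 of Slc5a7 and 1 each of Chat, Ddc and Gch1) and 2 reversed, both of Dbh, while the others kept direction and side of the threshold. The reversed values were -6.46 with neuron genes at 50 TPM or more and -0.96 without its highest cell. Over the 16 alternatives that kept a ratio of means, the log2 fold ranged from 3.40 to 4.91 for Slc18a3, 3.86 to 6.06 for Th, 1.65 to 6.03 for Chat, 1.26 to 4.20 for Slc18a2, -2.17 to -1.50 for Ddc and -5.57 to -1.19 for Gch1. As a difference of mean log2(TPM + 1), 0 members were 2-fold lower and 3 were higher, since Chat, Ddc and Gch1 came below 2-fold. With 1 TPM added, 1161 genes were higher and 1270 lower, and with no minimum of detecting cells 2670 and 4591, against 1748 and 2312. In set 2 alone 100% of Chat cells had Slc18a3. With neuron genes at 50 TPM or more, 32.1% of the 28 neurofilament-high cells had 2 or more cholinergic genes. Slc18a3 was detected in 5.80% of set 1 cells and 13.97% of set 2 cells. Of the members' shares, 36 moved by more than their interval. Rescaling to 1847 broadly detected genes moved the median log2 fold by -0.015. Unknown depth limits what a 0 can show.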

Other observations

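By the same 2-fold rule, 5 of the 6 genes of other transmitters that met the minimum of detecting cells were higher in neurofilament-high cells and none was lower, with a median log2 fold of 2.19. They include Slc17a6, the vesicular glutamate transporter VGLUT2, with 4.39 TPM in neurofilament-high cells and 0.0824 TPM in all other cells, and Gad2 with 18.6 and 4.01 TPM. Slc17a6 was detected in 8 neurofilament-high cells and 2 other cells, so it met the minimum only through the class where it was high. The same holds for Slc17a7, another of the 5, detected in 7 neurofilament-high cells and 5 other cells. Over all genes that met the minimum, 12.9% were higher and 17% lower. Of 6 serotonin genes only Tph1 met the minimum, and it was within 2-fold, with 0.583 TPM in neurofilament-high cells and 0.872 TPM in all other cells. The 6 neuron markers that did not define the class were higher, while 3 of 9 progenitor markers and 9 of 10 endoderm markers were lower. Of 5 neural crest markers that met the minimum, 2 were higher and 1 was lower. The 1 mesoderm marker and the 2 pluripotency markers that met it were lower, and the 1 blood or mast cell marker was within 2-fold.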
